A study of Mus musculus with 43 samples.

Results

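Respiratory complexes III and IV were represented in the pooled CRISPR screen by 155 of the 10390 gene-targeting sgRNAs, 5 for each of 31 of the 2078 metabolic genes. The 31 genes were chosen by name, with earlier results of these data already known. They were all library genes whose symbol began with *Uqcr*, or with *Cox* followed by a digit, together with *Cyc1*, and all are encoded in the nucleus. They comprised 9 subunits of complex III, 10 subunits of complex IV that are made in most tissues, 7 complex IV isoforms known from particular tissues and 5 genes for the assembly of complex IV or its joining to complex III. The sgRNAs are known here by identifier only, so no guide sequence is shown.

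The screen measured how often each sgRNA was found in the genomic DNA of CD8+ T cells. OT-I T cells, whose T cell receptor recognises an ovalbumin peptide, carried a Cas9 knock-in and were transduced with a lentiviral metabolic sgRNA library that marked them with CD90.1. They were transferred into mice bearing orthotopic KPC_OVA tumours, a pancreatic cancer line that expresses ovalbumin, and the mice received anti-PD-1 or a control IgG from the same day. CD90.1+ cells were sorted 7 days after transfer from the tumour, lungs, liver, peritoneal metastases, spleen, draining lymph node and nondraining lymph node, and the reference, T0, was the transduced cells in culture on the day of transfer. Every group, T0 included, thus carried OT-I, Cas9 and the whole library, and each sgRNA marks a small part of a mixed pool, not a cell line. Values were at hand for 41 libraries: 3 of T0, 12 of the lymph nodes, and 26 of the 5 other organs, with 3 libraries for each organ and treatment except liver under anti-PD-1 (1), liver under IgG (2) and peritoneal metastases under IgG (2). Of the 3 peritoneal libraries under anti-PD-1, replicate 2 is named as peritoneal in its title and as spleen in its tissue label; it was kept as peritoneal.

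Complex III, the cytochrome bc1 complex, passes electrons from ubiquinol to cytochrome c, and complex IV, cytochrome c oxidase, passes them on to oxygen; both pump protons across the inner mitochondrial membrane. Each combines subunits encoded in mitochondrial DNA, cytochrome b in complex III and the catalytic subunits in complex IV, with subunits encoded in the nucleus, and only the nuclear genes are described here. Several complex IV subunits exist as paired genes, of which 1 member is used widely and the other mainly in heart and skeletal muscle, lung or testis. A guide against a gene that the transferred cells need while they divide and persist becomes rarer than the nontargeting guides, which is called depletion.

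The level of a gene is given throughout as the mean over its 5 sgRNAs of log2(signal + 1), from which that library's median over the 250 nontargeting sgRNAs was subtracted, and a change is the difference of mean levels from T0 on this log2 scale. T0 held nearly every sgRNA, whereas between 2.78% and 42.6% of sgRNAs in the 26 libraries outside the nodes sat at the shared lowest value of their replicate number, written here as not detected. The lungs had the most, with 10.5% to 42.6%, and the tumour the fewest, with 2.78% to 4.24%. Over all 2078 genes the median change over the 10 groups outside the nodes was -0.55, so changes are best read against that value. Loss of the cells that carry a guide and chance loss of guides in a small sample of cells cannot be told apart within 1 library.

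Over the 10 organ and treatment groups outside the nodes combined, 16 of the 31 genes were depleted against T0 at an adjusted p of 0.05 or less (limma, Benjamini-Hochberg over 2078 genes), beside 17.7% of all genes. None was enriched in any of these groups, where 0.337% of all genes had such a call in 1 group or more, and none was above T0 at an unadjusted p below 0.05. The 16 were 7 of 9 complex III subunits, 5 of 10 widely made complex IV subunits, 0 of 7 tissue isoforms and 4 of 5 assembly genes. The median change was -3.46 in complex III, -1.59 in the complex IV subunits, -0.24 in the tissue isoforms and -3.25 in the assembly genes. In the same 16 genes all 26 libraries lay below all 3 T0 libraries, which was the case for 16.2% of all genes. 9 members were depleted in each of the 10 groups, beside 8.33% of all genes: *Uqcrc1*, *Uqcrb*, *Uqcrq*, *Uqcr10*, *Cox4i1*, *Cox6c*, *Cox7b*, *Cox11* and *Cox15*. Within each of the 3 replicate numbers, where the sorted libraries of a number were set against its own T0 library, the 16 changes ran from -5.20 to -1.64, from -5.62 to -2.09 and from -5.53 to -1.31. The count depended on how the 5 sgRNAs were summarised: with their median in place of the mean, 10 members were depleted, among 244 genes in all. The calls of *Uqcrfs1* (adjusted p = 0.054), *Uqcrq* (0.082), *Cox4i1* (0.14), *Cox6b1* (0.48), *Cox10* (0.32) and *Cox17* (0.15) ended with it.

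In complex III the largest change was that of *Uqcrc1*, a core protein that faces the matrix. Its levels at T0 were 0.35, 0.54 and 0.68. In the 26 sorted libraries outside the nodes they ran from -7.02 over a median of -4.40 to -2.08, so the groups were far apart. From here on, levels after sorting are those of these 26 libraries. The change was -5.04 ± 0.63 (SE; adjusted p = 9.6e-08), and it was called in all 10 groups, from -6.72 in lungs under anti-PD-1 to -3.81 in spleen under IgG. All 5 of its sgRNAs were depleted on their own, with changes between -5.77 and -4.23. No other member had all 5 called.

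*Uqcr10*, a small accessory subunit, followed with a change of -4.82 ± 0.62 (adjusted p = 1.4e-07). It stood at -0.15, 0.03 and 1.10 at T0 and between -7.36 and -2.90, with a median of -4.34, after sorting. *Uqcrb*, a ubiquinone-binding subunit, stood at -0.04, -0.03 and 0.57 at T0 and between -6.64 and -2.14 after sorting, with a median of -3.94. Its change was -4.39 ± 0.48 (adjusted p = 8.1e-09). Neither gene had a sorted library outside the nodes that reached the T0 range.

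*Cyc1*, which encodes the haem protein cytochrome c1, changed by -3.97 ± 0.66 (adjusted p = 1.1e-05). Its levels were 0.09, 0.03 and 0.79 at T0, and -6.84, -3.60 and -0.88 were the lowest, median and highest after sorting. It was called in 8 of 10 groups, and the highest library belonged to spleen under anti-PD-1, the group with the smallest change, -1.99. *Uqcrfs1*, the Rieske iron-sulphur protein that takes the first electron from ubiquinol, changed by -3.46 ± 0.56 (adjusted p = 7.7e-06) and was called in 9 groups. It stood at -0.41, -0.68 and -0.08 at T0 and between -5.98 and -1.78 after sorting, with a median of -3.75.

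The second core protein gene, *Uqcrc2*, changed by -3.44 ± 0.53 (adjusted p = 3.7e-06), called in 8 groups, and the small subunit gene *Uqcrq* by -3.40 ± 0.61 (adjusted p = 3.9e-05), called in all 10. *Uqcrc2* stood at -0.04, 0.11 and 0.37 at T0 and ran from -6.02 over a median of -3.11 to -1.74 after sorting. *Uqcrq* stood at 0.25, 0.01 and 0.48 at T0 and ran from -5.79 over -3.27 to -0.68. In both genes the sorted libraries outside the nodes again lay entirely below T0, though within *Uqcrc2* the guides were uneven, as described with the sgRNAs.

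The remaining complex III genes were not called over the 10 groups. *Uqcrh*, the acidic hinge protein, had a change of -1.17 ± 0.53 (adjusted p = 0.17), with 24 of 26 libraries below T0, and it was depleted in lungs under IgG (-1.96) and spleen under anti-PD-1 (-2.54). *Uqcr11*, a small accessory subunit, had a change of -0.83 ± 0.44 (adjusted p = 0.29), called in no group, with 21 libraries below T0 and 5 above.

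Among the widely made complex IV subunits *Cox7b* had the largest change, -4.37 ± 0.44 (adjusted p = 1.3e-09). Its levels were -0.46, -0.34 and 0.58 at T0. After sorting they were between -6.89 and -2.50 with a median of -4.15, wholly below T0. *Cox6c* changed by -4.03 ± 0.62 (adjusted p = 3.4e-06): from 0.43, 0.58 and 0.72 at T0 its levels fell to between -6.66 and -1.14, with a median of -3.61. Both are small single-span membrane subunits.

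*Cox5a*, a subunit on the matrix side, changed by -3.28 ± 0.68 (adjusted p = 2.6e-04) and was called in 6 groups. Its T0 levels of -0.09, 0.12 and 0.22 stood against a range of -5.58 to -0.61 and a median of -3.16 after sorting. *Cox4i1*, the subunit 4 that most tissues use, changed by -2.98 ± 0.49 (adjusted p = 9.3e-06) and was called in all 10 groups. It stood at 0.86, 0.62 and 1.16 at T0 and between -4.68 and -0.24 after sorting, with a median of -1.82. With the median of the sgRNAs its change was -1.57.

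*Cox6b1*, a subunit on the intermembrane side, was the fifth depleted subunit, with a change of -1.73 ± 0.57 (adjusted p = 0.030). Its levels were 0.41, 0.88 and 0.72 at T0 and between -3.79 and 0.08 after sorting, with a median of -0.72. It was called in 3 groups, the lungs under both treatments and peritoneal metastases under anti-PD-1. It is the least firm of the 16: without any 1 of the T0 libraries its adjusted p lay between 0.078 and 0.16. Its call also ended when centred on the median of all sgRNAs (adjusted p = 0.11) or the nontargeting mean (0.083). The same held with shared lowest values set to 0 (0.061) and with the nodes in the fit (0.33).

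The other 5 complex IV subunits were not called together. Their changes were -1.45 ± 0.56 for *Cox6a1* (adjusted p = 0.076), -1.41 ± 0.67 for *Cox7c* (0.21), -0.90 ± 0.39 for *Cox8a* (0.14), -0.80 ± 0.46 for *Cox5b* (0.34) and -0.77 ± 0.53 for *Cox7a2* (0.45). All lay below the median of all genes, -0.55, and between 20 and 24 of the 26 libraries of each lay below T0. Called in single groups were *Cox5b* (-1.94), *Cox6a1* (-3.23) and *Cox7a2* (-1.87) in lungs under IgG, and *Cox7c* (-2.89) and *Cox8a* (-2.27) in lungs under anti-PD-1. *Cox6a1* was also called in lungs under anti-PD-1 (-1.94, adjusted p = 0.0495).

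As a class the tissue isoforms had the median change closest to 0, although that of *Cox6b2* was larger than those of several subunits. *Cox4i2*, the lung isoform of subunit 4, had a change of -0.27 ± 0.59 (adjusted p = 0.80), with 8 of 26 libraries below T0 and 8 above. Its levels at T0 were 0.51, 0.18 and 0.40, and those after sorting were -3.18, 0.32 and 1.32 (lowest, median and highest). The groups therefore overlapped fully.

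Of the muscle and heart isoforms, the change was -0.24 ± 0.48 in *Cox6a2* (adjusted p = 0.77), -0.52 ± 0.51 in *Cox7a1* (0.59) and -0.17 ± 0.52 in *Cox8b* (0.84). Of the testis isoforms, it was -0.996 ± 0.638 in *Cox6b2* (adjusted p = 0.41), 0.01 ± 0.52 in *Cox7b2* (0.99) and -0.12 ± 0.43 in *Cox8c* (0.87). None of the 7 had an unadjusted p below 0.05 over the 10 groups. Median levels after sorting against the mean at T0 were 0.17 and 0.33 for *Cox6a2*, -0.57 and -0.30 for *Cox7a1*, 0.28 and 0.29 for *Cox8b*, -0.84 and -0.20 for *Cox6b2*, 0.32 and 0.35 for *Cox7b2*, and 0.22 and 0.20 for *Cox8c*. The lowest library of each isoform was a lung library, except for *Cox8b*, where it was a spleen library. *Cox6b2* was depleted in lungs under IgG (-2.67) and anti-PD-1 (-2.97), and *Cox7a1* in lungs under IgG (-2.63). No isoform was called elsewhere. Centred on the median of all sgRNAs or the nontargeting mean, the changes of *Cox4i2*, *Cox6a2*, *Cox8b* and *Cox8c* turned slightly positive, at most 0.29. Without centring they were lower, at -0.86, -0.83, -0.76 and -0.71. None of these 4 was called under any alternative. *Cox6b2* gained a call without centring (-1.58, adjusted p = 0.044) and, with the mean of each replicate number against its own T0, at -1.07 (adjusted p = 2.0e-04), as did *Cox7a1* in the latter (-0.60, adjusted p = 0.045), where 1056 of the 2078 genes were called depleted. In both settings *Uqcrh*, *Uqcr11*, *Cox5b*, *Cox6a1*, *Cox7a2*, *Cox7c* and *Cox8a* were called as well, beside 671 depleted genes in all without centring.

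Set against its isoform, library by library, the widely made subunit had the lower change in most pairs. *Cox7b* was below *Cox7b2* in 26 of 26 libraries, with a median difference of -4.31, and *Cox4i1* was below *Cox4i2* in 25, with -2.63. For *Cox8a* the counts were 21 against each of *Cox8b* and *Cox8c*, with median differences of -0.63 and -0.81. *Cox6b1* was lower than *Cox6b2* in 20 libraries (median -0.76), *Cox6a1* lower than *Cox6a2* in 19 (median -0.91) and *Cox7a2* lower than *Cox7a1* in 15 (median -0.27). The last pair thus hardly separated. These paired values are descriptions and carry no test.

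Of the assembly genes all but *Cox7a2l* were depleted. *Cox10* and *Cox15* make haem A, the haem particular to complex IV: *Cox15* changed by -3.78 ± 0.55 (adjusted p = 1.3e-06), called in all 10 groups, and *Cox10* by -2.45 ± 0.52 (adjusted p = 4.0e-04), called in 8. *Cox15* stood at -0.15, -0.34 and 0.02 at T0 and between -6.79 and -1.97 after sorting, with a median of -3.75. *Cox10* stood at -0.05, 0.13 and 0.08 at T0 and between -4.45 and -0.55 after sorting, with a median of -2.55.

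*Cox11* and *Cox17* deliver copper to the enzyme. *Cox11* changed by -3.57 ± 0.48 (adjusted p = 3.7e-07) in all 10 groups, from -0.95, -0.94 and -0.32 at T0 to between -6.05 and -1.77, with a median of -4.30. *Cox17* changed by -3.25 ± 0.68 (adjusted p = 3.0e-04) in 9 groups, from -0.26, -0.26 and 0.41 at T0 to between -6.69 and -1.40, with a median of -3.18. All sorted libraries of the 4 genes outside the nodes lay below T0. *Cox7a2l*, which helps to join complexes III and IV into supercomplexes, had a change of -0.49 ± 0.46 (adjusted p = 0.58), close to the median of all genes, and was called in no group.

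Complexes III and IV were compared within each library, where the nontargeting median cancels. The mean level of the 9 complex III genes minus that of the 10 complex IV subunits was -0.08, -0.13 and 0.13 in the 3 T0 libraries. In the 26 sorted libraries outside the nodes it was between -2.03 and -0.46, with a median of -1.39, and it was below all T0 values in 26 of 26. Complex IV subunits minus tissue isoforms gave -0.04, 0.03 and 0.27 at T0 and -2.90 to -1.07 after sorting, with a median of -1.66. Complex III minus tissue isoforms gave -0.12, -0.11 and 0.39 at T0 and -3.81 to -2.23 after sorting, with a median of -2.99. The order complex III, complex IV, isoforms from lowest to highest mean level therefore held in each of these 26 libraries, but the single genes of the first and second class overlapped: *Uqcr11* and *Uqcrh* had smaller changes than *Cox7b*, *Cox6c*, *Cox5a*, *Cox4i1* and *Cox6b1*.

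At the level of single sgRNAs, 34 of the 155 were depleted over the 10 groups (limma, adjusted over 10390 sgRNAs), beside 8.78% of all targeting sgRNAs. These were 21 of 45 in complex III, 9 of 50 in the complex IV subunits, 0 of 35 in the isoforms and 4 of 25 in the assembly genes. None of the 35 isoform guides had an unadjusted p below 0.05 with a change below 0. The count of 34 leaned on the 3 T0 libraries: without replicate 1, 2 or 3 of T0 it was 20, 18 or 15. The share over all targeting sgRNAs was not counted there. In 20 guides of complex III, 12 of complex IV, 0 of the isoforms and 13 of the assembly genes, the signal of all 26 libraries was below all 3 T0 libraries, beside 10.6% of all targeting sgRNAs.

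By class, with called and uncalled genes counted alike, most guides had a change below 0, though in the isoforms the share was below that of all targeting sgRNAs. In complex III, 44 of 45 guides had a change below 0, in complex IV 46 of 50, among the isoforms 23 of 35 and among the assembly genes 24 of 25, beside 78.1% of all targeting sgRNAs. Guides not detected made up 28.97% of guide and library pairs in complex III, 17.8% in complex IV, 24.8% in the assembly genes and 5.60% in the isoforms, beside 11.5% of all; at T0 no member guide was undetected. The spread among the 5 guides of a gene was nonetheless wide in some genes.

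The widest was *Cox4i1*. Its guide s_00699 was among the most abundant of the whole library at T0, with a signal of 3283, 2997 and 2559, and dropped to a median of 8.06 and at most 152 after sorting, a change of -7.85 ± 1.27 (adjusted p = 1.1e-04). Guide s_00696 of the same gene had a change of -0.71, from a T0 median of 234 to a median of 131, and none of the other 4 guides of *Cox4i1* was called. In *Uqcrc2*, guide s_05349 had a change of -6.09, with 18 of 26 libraries not detected, and guide s_05347 one of -0.03, with a sorted range of 0.85 to 3439. In *Cox10*, guide s_06036 had a change of 0.18, and its median signal of 537 after sorting stood against 895 at T0, while the other 4 guides had changes between -3.79 and -2.51. No single guide of *Cox10* passed the threshold, although the gene did.

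In other genes the guides were close to each other. The 5 guides of *Uqcr10* had changes between -5.67 and -3.84, those of *Cox7b* between -5.44 and -3.80, those of *Cox6c* between -5.17 and -3.16, and those of *Cox7c*, none of them called, between -1.76 and -1.22. *Cox5b* had guides on both sides of 0, from -2.66 to 0.88. Guide s_05510 of *Uqcrb* was the most often lost, undetected in 21 of 26 libraries, with a T0 median signal of 220 and a change of -6.26 ± 0.95 (adjusted p = 5.2e-05).

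Guides can cut only where their target occurs, and several of these genes have near-copies elsewhere in the mouse genome. Every stretch of 20 bases followed by NGG (the motif that Cas9 needs; N is any base), on either strand within the RefSeq coding exons of GRCm38, was counted for each gene, together with perfect matches at a further place in the chromosomes that are also followed by NGG. In the 7 tissue isoforms 0 of 263 such sites had a further match. In complex III the share was 0% in *Cyc1*, *Uqcrc2*, *Uqcrfs1* and *Uqcrq*, 3.33% in *Uqcrc1* and 11.4% in *Uqcr10*, but 62.1% in *Uqcr11*, 66.7% in *Uqcrh* and 96.6% in *Uqcrb*. In complex IV it was lowest in *Cox4i1*, 1.12%, and reached 89.8% in *Cox5b* and 100% in *Cox7c*, where none of the 24 sites was unique.

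By class the median share was 3.33% in complex III, 38.4% in the complex IV subunits, 0% in the isoforms and 6.45% in the assembly genes. The 7 subunits of both complexes that were not called had shares of 30.6% to 100%, with a median of 62.1%. The 12 that were depleted had shares of 0% to 96.6%, with a median of 7.37%. *Uqcrb*, *Cox6c* (71.4%) and *Cox7b* (64.3%) had high shares and were among the most depleted. *Cox7a2l* had 72.7%. These shares describe the sites that each gene offers, not the sgRNAs of the library, and their part in the changes was not tested.

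By organ and treatment, the depleted members were 13 of 31 in tumour under IgG, beside 13.8% of all genes, and 15 under anti-PD-1, beside 14%. In spleen they were 14 under IgG (14.4% of all genes) and 15 under anti-PD-1 (15.6%). In peritoneal metastases they were 14 under IgG (14.3%) and 16 under anti-PD-1 (16.1%). In liver they were 14 under IgG (13.1%) and 9 under anti-PD-1 (9%), where the 1 library was assumed to vary like the other groups. With the median of the sgRNAs these counts fell to 2 and 1 in tumour, 3 and 6 in spleen, 1 and 8 in peritoneal metastases and 2 and 1 in liver (IgG, then anti-PD-1). With the nodes in the fit they were 8 in tumour under IgG, 9 in peritoneal metastases under IgG, and 9 and 3 in liver. Where a group had only 2 libraries the count moved with them: without replicate 3 of liver under IgG it was 7, and without replicate 2 of peritoneal metastases under IgG it was 8.

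The lungs stood apart with 22 depleted members under IgG and 20 under anti-PD-1, beside 38.2% and 27.3% of all genes, where the median over all genes was -1.42 and -1.07. Summarised by the sgRNA median, 9 members were depleted there under each treatment, and under IgG 14 with the nodes in the fit and 13 with the nontargeting mean for centring. Over the 10 groups together the sgRNA median left 244 genes depleted in all, beside 368 with the mean. Shares of all genes by group were not counted under these alternatives, here or in the other organs. A general shift in calls therefore cannot be told apart from one in the members. Of the 22 depleted genes under IgG in the lungs, 8 were in complex III, 8 in complex IV, 2 were isoforms and 4 assembly genes. In the other 8 groups the counts were 4 to 7 in complex III, 3 to 5 in complex IV, 0 in the isoforms and 2 to 4 in the assembly genes. Guides of the members were undetected in 38.1% of guide and library pairs in the lungs, 19.5% in spleen, 19.2% in peritoneal metastases, 12.04% in liver and 4.62% in the tumour. The lungs had both the highest share not detected and the highest counts, and its part was not tested. Without the lungs, 16 members were depleted over the other 8 groups, among 371 genes in all.

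An F-test over the 5 organs, with the treatments averaged, called 3 members, *Cox7b*, *Cox15* and *Cox6b2*, beside 3.71% of all genes. The authors had corrected the deposited values for batch effects between organs. What this correction did to organ differences, or to the changes of each organ against T0, was not tested. The changes of *Cox7b* were -5.87 in lungs, -4.93 in peritoneal metastases, -4.04 in liver, -3.74 in spleen and -3.29 in tumour (adjusted p = 0.0018). The 6 lung levels, from -6.89 to -5.46, all lay below the 6 of spleen, from -4.86 to -2.92, the 6 of tumour, from -3.89 to -2.50, and the 3 of liver, from -4.29 to -3.78. They overlapped those of peritoneal metastases, which were -6.40, -6.07, -4.81, -4.73 and -3.78. The level of -6.07 is that of replicate 2 under anti-PD-1, whose tissue label says spleen. Taken as spleen, it would lie among the lung levels, and no fit with it as spleen was run.

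*Cox15* changed by -5.42 in lungs and by -3.57, -3.53, -3.53 and -2.85 in liver, tumour, spleen and peritoneal metastases (adjusted p = 0.030). Of its 6 lung levels 5, from -6.79 to -5.46, lay below every library of the other 4 organs, of which the lowest was a spleen library at -5.22. Replicate 3 of lungs under IgG, at -3.43, lay among them. *Cox6b2* changed by -2.82 in lungs and by -0.84 to -0.37 in the other 4 organs (adjusted p = 0.044), with lung levels between -5.50 and -1.24. The median of all genes was also lowest in lungs, -1.21, beside -0.58 in spleen, -0.52 in peritoneal metastases, -0.33 in liver and -0.22 in tumour. With each library centred on the median of all its sgRNAs, the adjusted p values were 0.0020 for *Cox7b*, 0.033 for *Cox15* and 0.053 for *Cox6b2*. Without the lungs none of the 3 was called, with adjusted p values of 0.26, 0.78 and 0.90. The number of members called was 9 without replicate 3 of lungs under IgG, and 1 without replicate 1 or replicate 2 of the same group or without replicate 2 of peritoneal metastases under IgG.

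The contrast of anti-PD-1 with IgG, averaged over the 5 organs, asks whether the levels of these genes differed between the treatments. No member was called, beside 0.481% of all genes, and 6 of 31 had an unadjusted p below 0.05, beside 13.2% of all genes. *Cox6c* came closest, with a mean level of -4.19 over the anti-PD-1 groups and -2.71 over the IgG groups, a difference of -1.47 ± 0.42 (adjusted p = 0.10), and it was lower under anti-PD-1 in 5 of 5 organs. Centred on the nontargeting mean, the difference was -1.51 and called (adjusted p = 0.034). With the replicate number as a block in the fit it was -1.64 and called too (adjusted p = 0.024). *Cyc1* went the other way, with -3.05 and -4.30, a difference of 1.25 ± 0.45 (adjusted p = 0.21). Over all members the differences ran from -1.47 to 1.25 with a median of -0.11.

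Within single organs, members were called only in the lungs, where they were 2, beside 1.68% of all genes. *Uqcrb* stood at -5.84, -6.47 and -6.64 in lungs under anti-PD-1 and at -4.54, -3.27 and -3.40 under IgG, a difference of -2.58 ± 0.64 (adjusted p = 0.033). *Cox8a* stood at -1.21, -2.35 and -2.30 under anti-PD-1 and at -0.40, 0.63 and -0.28 under IgG, a difference of -1.94 ± 0.52 (adjusted p = 0.048). In both genes the treatments did not overlap in the lungs, but the change with treatment was not tested between organs.

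The lymph nodes gave little information on these genes. Between 45.4% and 91.6% of all sgRNAs were not detected in the 12 node libraries, and in 9 of them the nontargeting median itself was at the shared lowest value, so a level cannot fall far below it. In a fit of all 41 libraries no member was depleted in any of the 4 node groups, at an unadjusted p below 0.05 either, and no gene of the 2078 was called depleted there. Median changes of the members were 1.52 and 1.12 in the draining node under IgG and anti-PD-1, and 1.03 and 0.88 in the nondraining node. Over all genes they were 2.08, 1.95, 1.37 and 1.49.

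Called as enriched were 5 members in the draining node under IgG, beside 35% of all genes, 3 under anti-PD-1, beside 28.2%, 2 in the nondraining node under IgG, beside 6.74%, and 0 under anti-PD-1, beside 8.95%, where 2 had an unadjusted p below 0.05. No complex III gene was among them. *Cox7b2* was called in the draining node under both treatments, with 3.84 and 4.08, and *Cox7a1* under IgG in both nodes, with 3.67 and 3.37. These counts were 0 in every group when the values were not centred or were centred on the nontargeting mean. Complex III lay below the tissue isoforms in 12 of 12 node libraries, with differences from -1.997 to -0.73 on the log2 scale, whereas complex III minus complex IV lay below all 3 T0 values in 9 of 12, within their range in 2 and above it in 1, at 0.73.

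The other parts of the respiratory chain give the scale. Of 38 *Nduf* genes, for complex I and its assembly, 30 were depleted over the 10 groups, with a median change of -2.99. All 4 complex II genes were depleted, with a median of -4.23, and 12 of 15 ATP synthase genes, with a median of -3.10. *Cycs*, the somatic cytochrome c that carries electrons from complex III to complex IV, changed by -3.98 ± 0.49 (adjusted p = 6.4e-08), and its testis counterpart *Cyct* had a change of -0.93 ± 0.55 (adjusted p = 0.35). Of 20 ribosomal protein genes, which dividing cells need, 19 were depleted with a median of -5.76. The median of complex III, -3.46, thus lay between those of complexes I and II, and that of the complex IV subunits, -1.59, above all of them, by description and with no test between the lists.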

How the data were processed

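The authors counted sgRNA reads with MAGeCK-VISPR, scaled these counts by the 250 nontargeting controls and removed organ batch effects with ComBat. The deposited values are therefore a signal per sgRNA, not counts, so no count test was used, and read depth is unknown. The genome build of the guide design is not given in the sources used here. 2 of 43 samples have no values and were not analysed here. Per gene, log2(signal + 1) was averaged over its 5 sgRNAs and centred on the nontargeting median of the library. A linear model with 1 mean per group was fitted over 29 libraries (T0 and 5 organs) with limma 3.58.1 in R 4.3.3, with moderated variances and Benjamini-Hochberg adjustment over 2078 genes, and a threshold of 0.05. The 12 node libraries were added only for the node groups, and single sgRNAs were fitted in the same way over 10390. The procedure was tested on simulated data with 200 changed genes. Arms that share T0 are not independent, libraries of different organs may share mice, and p-values treat them as independent. Members, classes and gene lists were chosen with earlier results of these data known. The genes named with their library values are all depleted members and the extreme members of each class; every other member is given by its change. The alternatives were another pseudocount, sgRNA medians, other centrings, rare sgRNAs left out, shared lowest values set to 0, a replicate block, other sets of libraries and each library left out.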

Additional observations from a re-analysis of the deposited data

Results flagged for a closer look

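In 3 members the change against T0 differed between the 5 organs outside the lymph nodes by the F-test across all genes (limma, Benjamini-Hochberg): *Cox7b* (adjusted p = 0.00184), *Cox15* (adjusted p = 0.0299) and *Cox6b2* (adjusted p = 0.0442). The call of *Cox6b2* lies near the threshold and ends with a median of all sgRNAs for centring (adjusted p = 0.053). In each of them the lungs had the lowest mean level. The values had been corrected by the authors for batch effects between organs, and what this did to these differences was not tested. The lungs also had the highest share of sgRNAs not detected and the lowest median change of all genes, -1.21, and the part of either in these differences was not tested.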

How the results depend on the processing

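The 16 genes depleted over the 10 groups outside the lymph nodes kept their direction under all alternatives. Not all kept their call: *Cox6b1* was called in 6 of 11 alternatives, single libraries left out not counted. With the median of the 5 sgRNAs, 10 members were depleted over the 10 groups. By group the counts with this median were 2 and 1 in tumour (IgG, then anti-PD-1), 9 and 9 in lungs, 2 and 1 in liver, 1 and 8 in peritoneal metastases and 3 and 6 in spleen. With lymph nodes included in the fit they were 8 in tumour under IgG, 14 in lungs under IgG, 9 and 3 in liver, and 9 in peritoneal metastases under IgG. Lungs under IgG had 13 with the nontargeting mean for centring. Liver under anti-PD-1 had 14 without centring and 22 when fitted with T0 alone, where the spread came from T0 only. With log2(value + 10), 52 member sgRNAs were depleted in place of 34. Changes not called turned sign with other settings. *Cox7b2* was at -0.036 with the sgRNA median, -0.57 without centring, -0.040 with shared lowest values set to 0 and -0.035 with a replicate block. Centred on the median of all sgRNAs, *Cox4i2* was at 0.12, *Cox6a2* at 0.14, *Cox8b* at 0.21 and *Cox8c* at 0.27. Centred on the nontargeting mean, they were at 0.14, 0.17, 0.24 and 0.29. With the sgRNA median, *Cox6a2* was at 0.13 and *Cox8b* at 0.19. All genes had a median change of -0.55, and of -1.14 without centring, -0.17 centred on all sgRNAs and -0.14 on the nontargeting mean.

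Members that differed between organs numbered 0 with log2(value + 10), with the nontargeting mean, with lymph nodes included or with the lungs left out (an alternative chosen after seeing the data), 1 with the sgRNA median and 9 without centring. Between anti-PD-1 and IgG, 1 member, *Cox6c*, was called with the nontargeting mean. In the nodes, 0 members were called as enriched in the draining node under IgG and anti-PD-1 and in the nondraining node under IgG, both without centring and with the nontargeting mean.

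Deviations from the group means across genes correlated above 0.1 in 39 of 118 pairs of same-numbered libraries and in 18 of 234 other pairs. Same-numbered pairs ran from -0.36 to 0.27 with a median of -0.01, and with T0 2 of 25 were above 0.1. Some same-numbered libraries thus deviated together, but not all, and the labels do not say what the numbers mark, so they were not taken as pairs. The values had been batch-corrected, and what this did to these correlations was not tested. The check therefore cannot show that the numbers mark no pairs or batches. With a replicate block 17 members were depleted over the 10 groups, 2 differed between organs (*Cox6b2* was not called, adjusted p = 0.053), 1 member (*Cox6c*, adjusted p = 0.024) differed between anti-PD-1 and IgG, and 5 were enriched in the draining node under anti-PD-1. With the mean of each replicate number against its own T0 (replicate block), 25 members were depleted, among 1056 of all genes, and *Cox7b2* was at -0.0653.

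With each library left out in turn, the depleted members numbered 15 to 17 over the 10 groups, 7 to 15 in liver under IgG and 8 to 14 in peritoneal metastases under IgG. Depleted member sgRNAs numbered 15 to 39, members that differed between organs 1 to 9, and enriched members 0 to 10 and 0 to 8 in the draining node (IgG, anti-PD-1) and 0 to 6 and 0 to 2 in the nondraining node. *Cox7b2* ranged from -0.13 to 0.12. Except where given, the shares over all genes or sgRNAs were not counted under the alternatives. The causes of these shifts in the counts were not tested. The alternative without sgRNAs that match several genomic sites was not run, since their sequences were not used here. Guides at the shared lowest value set a floor on each change, most of all in the lungs and lymph nodes.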
